A study of Danio rerio with 8 samples.

Results

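Among cassette exons of zebrafish larvae, 301 rows of the authors' deposited skipped exon table described exons that were longer than 30 bases, were not a multiple of 3 bases long and were included at an intermediate level. The rule required a mean of at least 10 junction reads over the 8 values of a row, and a mean inclusion level of at least 0.2 and under 0.8 in the second group of the table. These rows made up 301 of 30752, and they held 292 distinct exons in 271 genes, because some exons were listed with several pairs of flanking exons. The window was set on the second group, so the exons were selected on the inclusion levels of that group and on the junction reads of both, and everything derived from the same comparison of inclusion is given as a description.

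The libraries were made from polyA RNA of whole TLEK-strain larvae at 5 days post fertilization. There were 4 from larvae homozygous for a nonsense mutation in upf1 and 4 from wild types. The labels do not say whether larvae were pooled or came from separate clutches, so p-values measure only the spread between these libraries. The skipped exon table compares 2 groups of 4 libraries, and neither its header nor the labels state which genotype is its first group. Directions of inclusion are therefore given as first against second group, with no genotype, and only the gene counts are compared by genotype.

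Upf1 is the RNA helicase on which nonsense-mediated decay (NMD) depends; NMD removes mRNAs in which translation stops early. An exon whose length is not a multiple of the codon length shifts the reading frame when it is added or removed inside a coding sequence, so the 2 forms of such a gene usually cannot both encode the full protein. In mammals, many genes of RNA-binding proteins use this arrangement to limit their own level, either by including a "poison" exon that carries a stop codon or by skipping a coding exon. No annotation was used to tell coding from untranslated exons here, so "frame-breaking" refers to length alone.

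Gene counts summed to between 75335048 and 96104507 per library, and the skipped exon table held 18244265 to 27078389 junction reads per library. The upf1 mRNA itself was 2.21-fold higher in mutants (edgeR quasi-likelihood test, Benjamini-Hochberg adjusted p = 8.34e-06), a level that does not check the genotype labels because a nonsense mutation need not lower it. It had 3 rows in the skipped exon table and 0 among the 301. Markers of all 9 tissue lists were detected, none at 0. Summed muscle markers spanned 38020 to 49420 CPM (counts scaled to library size) in mutants and 57730 to 74800 CPM in wild types, summed epidermis markers 6557 to 10700 against 12950 to 16520 CPM, and summed exocrine pancreas markers 176.5 to 5644 against 7467 to 11400 CPM. Gene by gene, edgeR called 1 of 7 muscle, 3 of 5 epidermis and 0 of 4 exocrine pancreas markers lower in mutants, and 0 higher. Summed liver markers spanned 3593 to 6546 CPM in mutants and 6169 to 8926 CPM in wild types, with 4 of 7 lower and 1 higher in mutants by edgeR. The ranges of the liver list overlapped, as did those of the brain, retina, intestine, erythrocyte and leukocyte lists. Among these other lists, edgeR called 1 of 6 brain, 1 of 6 retina and lens, 2 of 6 intestine and 2 of 5 leukocyte markers lower in mutants. It called 0 of 4 erythrocyte markers lower and 0 markers of these 5 lists higher. In whole larvae, fewer cells of a type and less RNA per cell cannot be told apart.

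The 292 exons were short. Their median length was 94 bases (quartiles 61 and 139, range 31 to 1412), 161 were of at most 100 bases and 19 were over 300. Division by 3 left 1 base in 160 exons and 2 bases in 132. They lay on all 25 chromosomes, with 22 on chromosome 4, and 145 were on the plus strand. Median flanking introns were 1744.5 bases upstream and 2175.5 downstream. Mean junction reads ran from 10.125 to 3905, with a median of 89.2, and 143 exons had at least 100.

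At the lower bound of the window, the authors' deposited table placed reep1 (0.202) and arhgef18a (0.2045) just inside and si:dkey-71h2.2 (0.199) and rbfox1 (0.1975) just outside by mean inclusion in the second group. At the upper bound, the authors' deposited table placed myh7bb (0.7965) and ptbp2b (0.79625) just inside, and morn3 (0.80075) was among those just outside. Both exons just inside the upper bound were among the largest falls described further on. In the first group, 236 of the 292 exons stayed within the window, 22 fell under it and 34 lay above it.

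By the FDR of the authors' deposited table, with a threshold of 0.05, 88 of the 301 rows (29.2%) differed between the groups, where 9.01% of all 29523 rows with enough junction reads did. Of these, 42 were higher in the first group (1.27% of all rows were) and 46 were lower (7.74% of all rows were). Counted once per exon, 85 of 292 passed, 39 higher and 46 lower, and 207 did not. The levels of the 2 groups did not overlap for 75 of the 301 rows (24.9%, beside 7.97% of all rows), and for 65 of the 85 exons that passed. With the window set on the first group in its place, 373 of 610 rows passed, 56 higher and 317 lower. That window held other rows, with 244 of its 610 also in the original window. It therefore cannot show why the 301 rows split nearly evenly, which was not tested. A limma fit of log2 ratios of inclusion to skipping reads, an alternative to the authors' test, called 56 of the 301 rows, 22 higher and 34 lower, beside 7.43% of all rows. Because the window selects exons that are free to move both ways and most rows of the table are at full inclusion, these shares describe the choice of exons as well as the samples.

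Frame-preserving exons in the same window, with a length that is a multiple of 3, passed in 176 of 1211 rows (14.5%), with 74 higher and 102 lower in the first group. Frame-breaking exons rarely included in the second group passed in 86 of 268 rows (32.1%), 70 higher and 16 lower, and those mostly included in 1597 of 16859 rows (9.47%), 36 higher and 1561 lower. The share that passed among the intermediate frame-breaking exons was therefore close to that among the rarely included ones. The share of frame-breaking intermediate rows that passed was 12.6% at 10 to under 50 junction reads, 18.6% at 50 to under 100, 38.3% at 100 to under 500 and 65.6% (21 of 32 rows) at 500 or more. For frame-preserving rows in the window the same shares were 10.3%, 10.8%, 16.1% and 29.4%, and for all rows 9.27%, 8.99%, 9.499% and 7.53%. By the authors' FDR the 2 classes of intermediate exons lay close together among shallow rows and far apart among deep ones, and no test of that difference was run because the window used these levels.

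**Figure D1:**
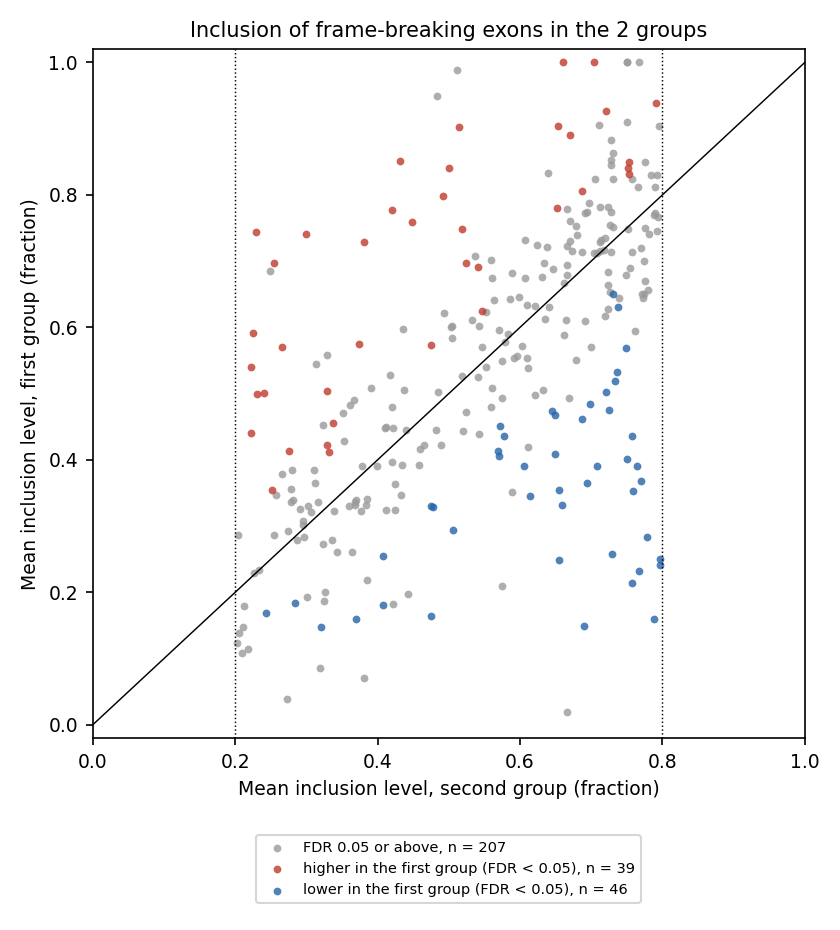
Mean inclusion level (fraction of transcripts that include the exon) of the 292 frame-breaking exons in the second group (x axis) and in the first group (y axis), each point 1 exon, coloured by the authors' FDR. Dotted lines mark the window of 0.2 to 0.8, and the 39 higher and 46 lower exons lie on either side of the diagonal at all levels inside it.

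Exons that were higher in the first group went from a median level of 0.449 in the second group to 0.742, with a median difference of 0.221 (0.078 to 0.515). Those that were lower went from 0.688 to 0.360, with a median difference of -0.226 (-0.627 to -0.074). Higher exons had a median length of 109 bases and median introns of 728 bases upstream and 1296 downstream. Lower exons had a median length of 91 bases and introns of 1149 and 1783.5, and exons that did not pass had introns of 1972 and 2357. Flanking introns were thus shorter around the exons that differed, and deeper sequenced exons were also more often called (median junction reads 199.6, 184.75 and 65.5 in the 3 classes).

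Inclusion is a ratio, so the reads behind each form were compared separately. Junction reads were scaled to the table's total in each library and averaged within a group, and the first group was divided by the second. Among the 46 lower exons, reads that skip the exon were at a median ratio of 3.19 and above 1 in all 46, while reads that include it were at a median of 0.982. Among the 39 higher exons, reads that include it were at a median of 1.76 and above 1 in 38, while skipping reads were at a median of 0.832. Skipping reads were at least 2-fold more abundant for 30 of the 46 lower exons, and inclusion reads were at least 2-fold less abundant for 3 of them. For frame-preserving exons in the window, the 93 lower ones had medians of 1.52 for skipping and 0.788 for inclusion reads, and the 71 higher ones 0.735 and 1.502. Skipping reads were above 1 for 89 of the 93 lower frame-preserving exons, and inclusion reads for 69 of the 71 higher ones. Among the 207 frame-breaking exons that did not pass, medians were 1.18 for inclusion and 1.14 for skipping reads. Ratios were above 1 for 145 and 138 of these 207. In both frame-breaking classes that passed, the median of 1 form was thus well above 1. That of the other was 0.982 or 0.832, below the medians of exons that did not pass.

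**Figure D2:**
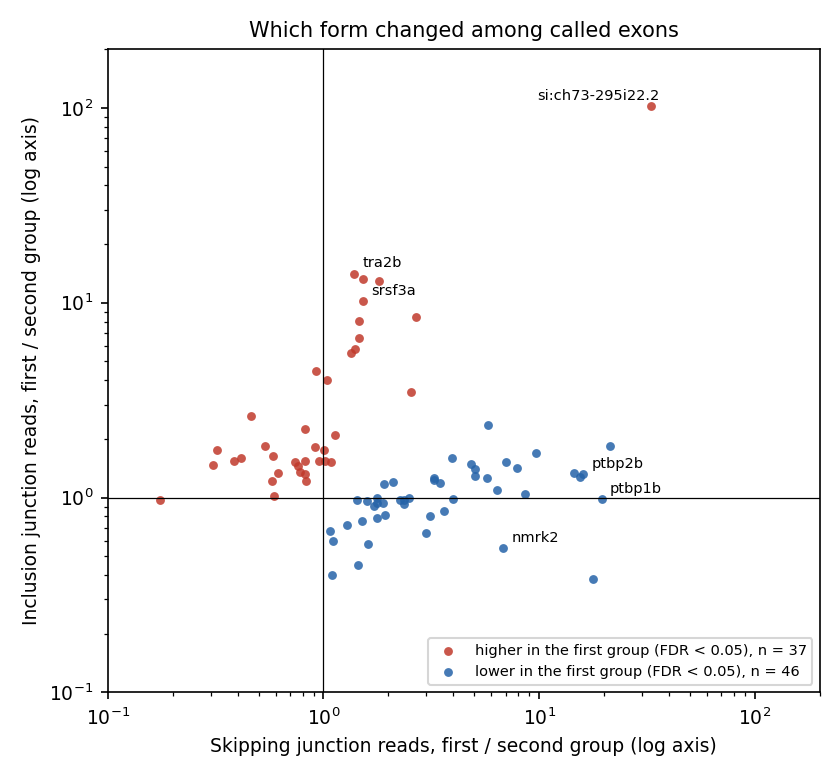
Ratio of junction reads in the first over the second group for the skipping form (x axis) and the inclusion form (y axis), both on log axes, for 83 of the 85 exons that passed, each point 1 exon. The other exons had no skipping reads in the first group; the lower exons extend to the right along the horizontal line of 1, and the higher exons with the largest ratios extend upward near the vertical line of 1.

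The 10 largest rises and the 10 largest falls with groups that did not overlap held 8 exons of the SR and hnRNP list described below and 1 of the core spliceosome list. The 10 rises had differences of 0.306 to 0.515, inclusion reads 4.03 to 14.1 times as abundant in the first group and skipping reads 0.921 to 1.80 times. The 10 falls had differences of -0.627 to -0.403, skipping reads 6.35 to 21.4 times as abundant and inclusion reads 0.549 to 1.83 times. The authors' FDR was written as 0 for 8 of the rises and for all 10 falls.

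**Figure D3:**
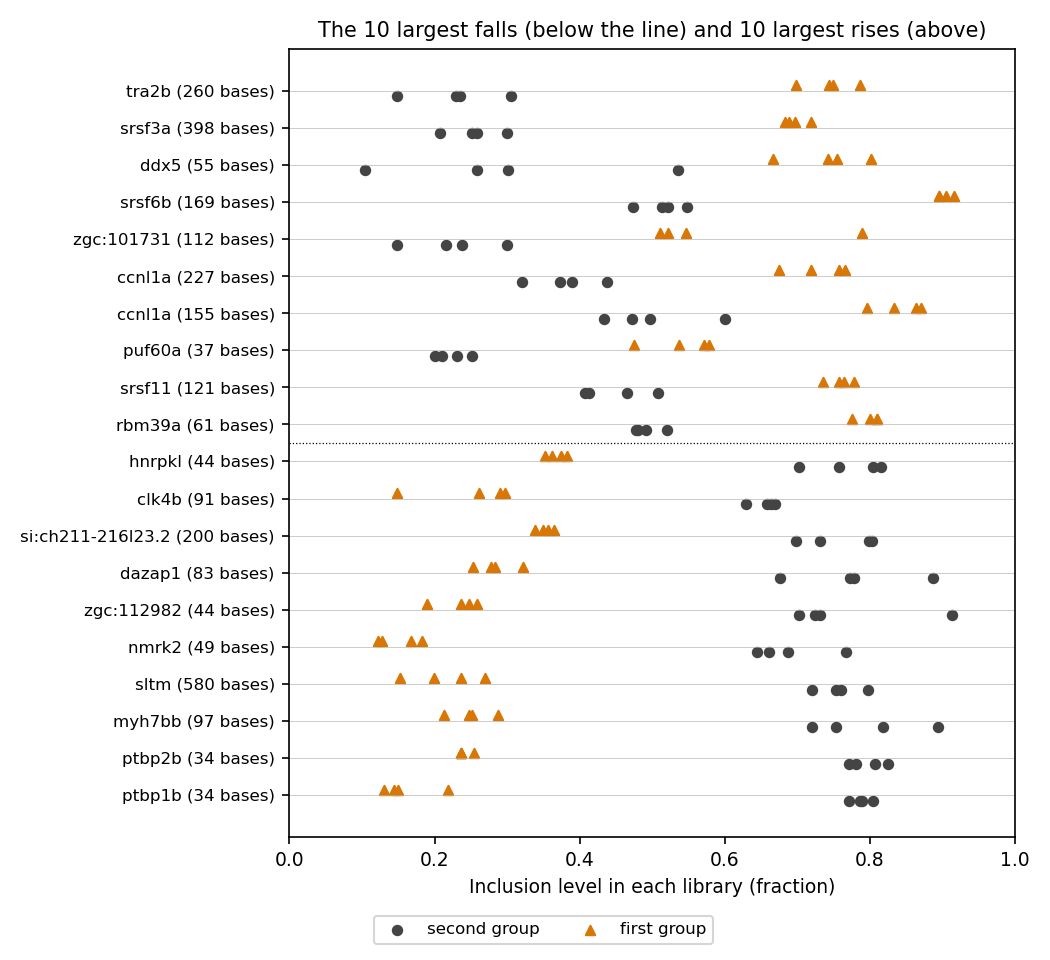
Inclusion level (fraction, x axis) of the 10 exons with the largest rise and the 10 with the largest fall in each of the 8 libraries, circles for the second group and triangles for the first. For all 20 exons the triangles and circles do not overlap, with tra2b rising from between 0.148 and 0.306 to between 0.698 and 0.786, and ptbp1b falling from between 0.771 and 0.805 to between 0.13 and 0.218.

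SR proteins bind exonic enhancers and recruit the splicing machinery, and hnRNP proteins often oppose them. Of the 11 exons in the list of SR and hnRNP splicing regulators, 5 were higher in the first group (tra2b, srsf3a, srsf6b, srsf11 and rbm39a), 4 were lower (ptbp1b, ptbp2b, clk4a and clk4b) and 2 were not called (elavl1 and mbnl3). These 9 of 11 stand beside 29.2% of the frame-breaking intermediate rows and 9.01% of all rows. The 9 were deep, with mean junction reads from 276.25 (clk4b) to 1499 (srsf11), beside a median of 89.2 over the 292 exons. Frame-breaking intermediate rows, these exons among them, passed in 38.3% at 100 to under 500 reads and in 65.6% at 500 or more. The part of depth in the share of this list was not tested. The median difference of the list was 0.006, beside -0.004 over all rows with enough reads, because the 2 directions cancelled. This list was drawn up with earlier results of these data known.

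The exon with the largest rise was one of 260 bases in tra2b (ENSDARG00000002168, chr9:12619219-12619478, minus strand, GRCz10), which encodes an SR-like splicing activator whose mammalian counterpart limits itself through a poison exon. Its inclusion levels in the authors' deposited table were 0.786, 0.744, 0.75 and 0.698 in the first group and 0.148, 0.235, 0.306 and 0.23 in the second, a difference of 0.515 in the means (FDR written as 0). Every library of the first group included the exon in most transcripts, and no library of the second group did. The reads behind this in the authors' deposited table were 891, 819, 890 and 904 inclusion reads in the first group against 51, 81, 67 and 73 in the second, and 121, 141, 148 and 196 skipping reads against 147, 132, 76 and 122. Scaled to library totals, inclusion reads were 14.1 times and skipping reads 1.39 times as abundant in the first group.

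An exon of 398 bases in srsf3a (ENSDARG00000025397, chr6:41084678-41085075, minus strand), a small SR protein gene, followed the same pattern. Its levels in the authors' deposited table were 0.697, 0.683, 0.689 and 0.719 in the first group and 0.208, 0.3, 0.251 and 0.258 in the second. Inclusion reads were 10.2 times and skipping reads 1.52 times as abundant in the first group. The exon of 169 bases in srsf6b (chr11:1497943-1498111, plus strand), another SR protein gene, had 0.895, 0.895, 0.916 and 0.905 against 0.474, 0.513, 0.522 and 0.548 in the authors' deposited table, with inclusion reads at 13.2 times and skipping reads at 1.53 times. It was near full inclusion in the first group and near even usage in the second.

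Further rises were measured in srsf11, which encodes an SR-related protein, and in rbm39a, which encodes a splicing coactivator related to U2AF. For the exon of 121 bases in srsf11 (chr11:45015519-45015639), the authors' deposited table gave 0.778, 0.765, 0.735 and 0.757 against 0.413, 0.407, 0.508 and 0.466. For the exon of 61 bases in rbm39a (chr11:24102772-24102832), the authors' deposited table gave 0.775, 0.81, 0.8 and 0.81 against 0.48, 0.492, 0.478 and 0.52. Both exons were read deeply, with means of 1499 and 1368 junction reads, and the groups stood clearly apart. The inclusion reads of srsf11 were 4.03 times and those of rbm39a 5.49 times as abundant, with skipping reads at 1.04 and 1.34 times.

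The largest fall was that of an exon of 34 bases in ptbp1b (ENSDARG00000031907, chr11:14276982-14277015, plus strand). It encodes a polypyrimidine tract binding protein, a splicing repressor whose mammalian counterpart limits itself by skipping an exon. Its levels in the authors' deposited table were 0.218, 0.13, 0.144 and 0.15 in the first group and 0.771, 0.786, 0.789 and 0.805 in the second, a fall by 0.627. Inclusion reads were nearly equal, at 166, 88, 132 and 117 against 117, 149, 130 and 155 in the authors' deposited table, whereas skipping reads were 413, 407, 541 and 460 against 24, 28, 24 and 26. Scaled to library totals, these were ratios of 0.986 and 19.5.

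The related gene ptbp2b (ENSDARG00000015901) held an exon of the same length, 34 bases (chr2:20132713-20132746, plus strand). Its levels in the authors' deposited table were 0.237, 0.237, 0.237 and 0.255 in the first group and 0.807, 0.825, 0.772 and 0.781 in the second. Skipping reads of ptbp2b were 703, 589, 602 and 702 in the first group of the authors' deposited table and 36, 40, 52 and 48 in the second. The ratio was 16.0 for the skipping form and 1.32 for the inclusion form. As in ptbp1b, the inclusion form differed far less between the groups than the skipping form.

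**Figure D4:**
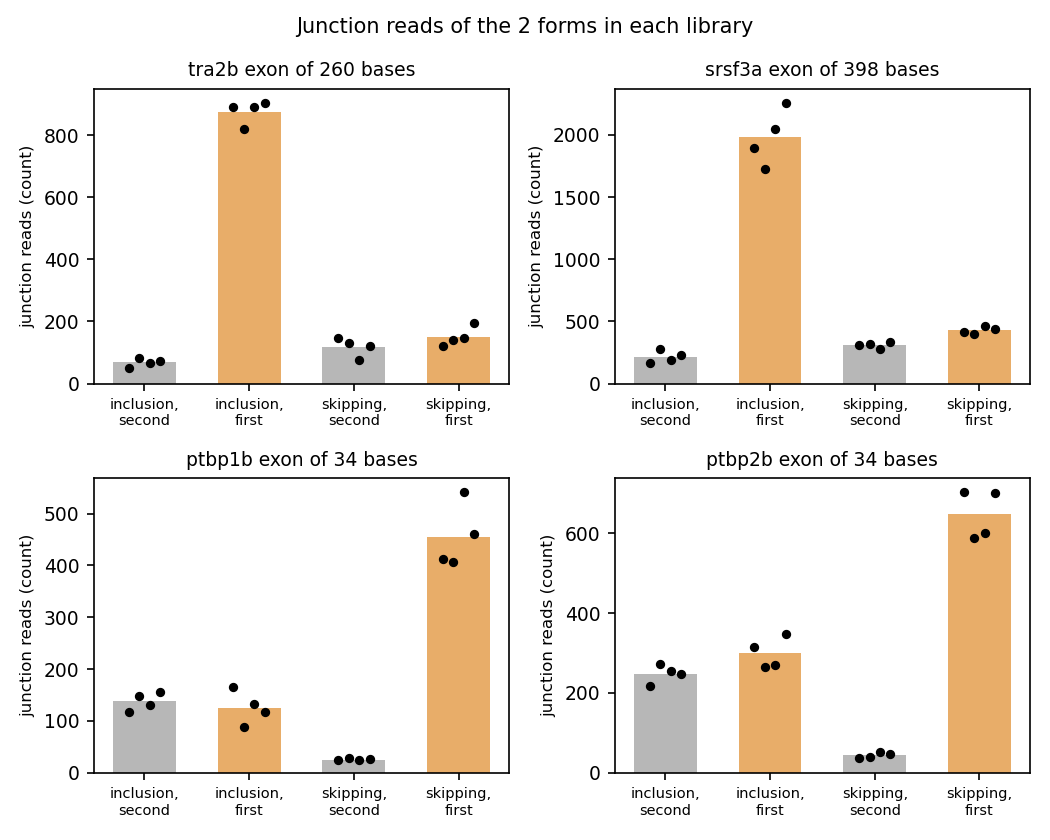
Junction reads (count, y axis from 0) that include or skip the exon in tra2b, srsf3a, ptbp1b and ptbp2b, points for the 4 libraries of each group and bars for their mean, grey for the second and orange for the first group. In tra2b and srsf3a the inclusion bars differ most, for example 819 to 904 against 51 to 81 in tra2b, and in ptbp1b and ptbp2b the skipping bars do, for example 407 to 541 against 24 to 28 in ptbp1b.

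Exons of equal length and equal direction also occurred in other pairs of related genes. The kinases encoded by clk4a and clk4b phosphorylate SR proteins, and each had an exon of 91 bases. The exon of clk4b (chr21:32252066-32252156) was at 0.29, 0.148, 0.297 and 0.262 against 0.659, 0.664, 0.669 and 0.63 in the authors' deposited table. That of clk4a (chr14:6633185-6633275) was at 0.17, 0.105, 0.145 and 0.222 against 0.287, 0.412, 0.45 and 0.333 in the authors' deposited table. Neither pair of groups overlapped, with skipping reads at 6.35 and 4.83 times and inclusion reads at 1.09 and 1.49 times.

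The splicing regulators rbm5 and rbm6 each had an exon of 74 bases on chromosome 6. For rbm5 the authors' deposited table gave 0.151, 0.134, 0.171 and 0.2 in the first group and 0.491, 0.499, 0.438 and 0.473 in the second. For rbm6 the authors' deposited table gave 0.32, 0.303, 0.303 and 0.403 against 0.7, 0.658, 0.668 and 0.609. The exons fell by 0.311 and 0.327, and their skipping reads were 7.03 and 5.07 times as abundant. These 2 genes and several in the next paragraphs were in no fixed list and are grouped as RNA-binding after their values were seen.

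Other falls among RNA-binding genes had the same form of change. An exon of 580 bases in sltm, a gene for a nuclear protein related to scaffold attachment factors (chr7:30282052-30282631, minus strand), was at 0.237, 0.153, 0.199 and 0.269 against 0.721, 0.76, 0.797 and 0.753 in the authors' deposited table. An exon of 83 bases in dazap1, which encodes an hnRNP-like protein, fell by 0.495, and one of 44 bases in hnrpkl, related to hnRNP K, by 0.403 in the authors' deposited table. In rbpms2b, a gene for an RNA-binding protein, an exon of 151 bases was at 0.407, 0.381, 0.428 and 0.387 against 0.755, 0.727, 0.792 and 0.726 in the authors' deposited table. Skipping reads were 15.4 times as abundant for sltm, 8.58 for dazap1, 9.72 for hnrpkl and 5.72 for rbpms2b, and inclusion reads between 1.05 and 1.69 times.

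In pcbp3, a poly(C)-binding protein gene, 2 exons of 76 and 79 bases shared 1 end and fell by 0.149 and 0.141 in the authors' deposited table. They share the same skipping reads, so they are not independent measurements.

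Rises outside the list included ccnl1a, which encodes cyclin L1, a partner of kinases that act on splicing. Its exons of 155 bases (chr18:41524572-41524726) and 227 bases (chr18:41524572-41524798) share a start. The longer exon was at 0.675, 0.758, 0.766 and 0.719 against 0.373, 0.438, 0.39 and 0.321 in the authors' deposited table, and the shorter at 0.796, 0.864, 0.871 and 0.834 against 0.472, 0.601, 0.497 and 0.433. Their inclusion reads were 6.60 and 8.02 times as abundant, and the shared skipping reads 1.46 times. An exon of 37 bases in puf60a, which encodes a splicing factor that binds near the 3' splice site, was at 0.537, 0.572, 0.578 and 0.475 against 0.21, 0.251, 0.2 and 0.231 in the authors' deposited table. The exon of 760 bases in rbm4.2 was 0.151 higher in the authors' deposited table, with groups that overlapped.

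The single exon from the core spliceosome list was in ddx5, an RNA helicase gene. It was 55 bases long (chr3:25141304-25141358) and shallow, with a mean of 22.9 junction reads. Its levels in the authors' deposited table were 0.743, 0.802, 0.755 and 0.666 against 0.258, 0.302, 0.536 and 0.104 (FDR 0.000492). The second group rested on 3, 3, 4 and 1 inclusion reads in the authors' deposited table, the lowest counts among the 10 largest rises. No exon of the lists of NMD and exon junction factors or of cytoplasmic ribosomal proteins met the rule.

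The muscle list held 7 exons, of which 2 fell (myh7bb and myom1a), 0 rose and 5 were not called, a share like the 29.2% of all frame-breaking intermediate rows. Exons entered the list by gene symbol alone. Whether mef2bnb, among those not called, is a muscle gene was not checked. An exon of 97 bases in myh7bb, a myosin heavy chain gene (chr23:18798543-18798639, plus strand), was at 0.252, 0.247, 0.213 and 0.288 against 0.72, 0.818, 0.894 and 0.754 in the authors' deposited table. Its skipping reads were 21.4 times and its inclusion reads 1.83 times as abundant in the first group. The related gene myh7ba also had an exon of 97 bases, at 0.033, 0.027, 0.018 and 0 in the first group of the authors' deposited table. In the second group that table gave 1, 1 and 0 and left 1 library empty, on at most 3 reads per library (FDR 1), so no difference was called.

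In myom1a, a gene of the sarcomeric M-band, an exon of 181 bases was at 0.155, 0.146, 0.115 and 0.172 against 0.28, 0.301, 0.235 and 0.468 in the authors' deposited table. Here inclusion reads were at 0.402 and skipping reads at 1.099 times, a different pattern from myh7bb. An exon of 44 bases in mybpc1, a myosin-binding protein gene, was at 0.832, 0.9, 0.85 and 0.717 against 0.817, 0.7, 0.765 and 0.748 in the authors' deposited table (FDR 0.0832), and the groups overlapped. Summed muscle marker CPM was lower in all mutants than in all wild types, as given above, and its part in these exons was not tested. An exon of 49 bases in nmrk2, which encodes a nicotinamide riboside kinase of muscle, was in no list. It fell from 0.661, 0.767, 0.644 and 0.687 to 0.183, 0.128, 0.167 and 0.122 in the authors' deposited table, and it was the one among the 10 largest falls with inclusion reads well under 1 (0.549) beside skipping reads at 6.79.

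In each list of neuronal, junctional, chromatin, kinase and translation genes, between 0 and 2 exons passed. The neuronal synapse and channel list had 1 of 8 exons higher, the cytoskeleton and junction list 1 of 5, the chromatin and transcription list 2 of 10, the kinase list 0 of 3 and the translation list 1 of 3, with 0 lower in each. These counts stand beside the 9.01% of all rows and the 29.2% of frame-breaking intermediate rows. They are too small to set one list apart from another or from these shares. The 244 exons in no list had 28 higher, 40 lower and 176 not called.

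The neuronal exon that passed was one of 34 bases in dlg1l, a synaptic scaffold gene. It was at 0.609, 0.451, 0.468 and 0.471 against 0.339, 0.269, 0.224 and 0.09 in the authors' deposited table, with a mean of 39 junction reads. The calcium channel exons of cacnb3a (47 bases, difference 0.229) and cacna1ba (97 bases, -0.123) did not pass in the authors' deposited table, at means of 14 and 34.9 junction reads. In ctnnd1, which encodes the junction protein p120 catenin, 1 exon of 152 bases was 0.102 higher (FDR 0.00438) and another of 95 bases differed by -0.051 (FDR 0.225) in the authors' deposited table. For each of these ctnnd1 exons the groups did not overlap.

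Among chromatin and transcription genes, an exon of 94 bases in mbd1b, a methyl-CpG-binding protein gene, was at 0.473, 0.352, 0.391 and 0.545 against 0.228, 0.308, 0.175 and 0.178 in the authors' deposited table. An exon of 178 bases in foxp2, a forkhead transcription factor gene, was 0.129 higher in the authors' deposited table (FDR 0.00839). In eif4ba, a translation initiation factor gene, an exon of 130 bases was at 0.607, 0.502, 0.456 and 0.452 against 0.357, 0.427, 0.286 and 0.249 in the authors' deposited table. A second eif4ba exon, of 73 bases, differed by -0.074 and did not pass (FDR 0.526 in the authors' deposited table). The kinase exons of mark3a, MARK4 and pik3ca differed by 0.069, 0.063 and 0.06 in the authors' deposited table, and none passed.

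Deep exons with small differences passed as well. An exon of 95 bases in capzb, the beta subunit gene of the actin capping protein, had a mean of 3205 junction reads. It was at 0.352, 0.289, 0.343 and 0.337 against 0.47, 0.482, 0.471 and 0.48 in the authors' deposited table, with inclusion reads at 0.602 and skipping reads at 1.11 times. An exon of 133 bases in cct8, a chaperonin subunit gene, fell by 0.074 in the authors' deposited table, the smallest fall that passed, with inclusion reads at 0.675 times. In both genes it was the inclusion form that was less abundant.

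Of the 207 exons that did not pass, 78 differed by less than 0.05, and 47 of those had at least 100 junction reads. Of the same 207, 80 had under 50 reads and 16 differed by 0.2 or more without passing. The deepest was an exon of 73 bases in vdac3, a mitochondrial porin gene (3905 reads), at 0.256, 0.33, 0.231 and 0.315 against 0.287, 0.247, 0.305 and 0.35 in the authors' deposited table. An exon of 100 bases in hmgn3, a nucleosome-binding protein gene, was at 0.562, 0.587, 0.543 and 0.506 against 0.617, 0.542, 0.539 and 0.603, and one of 82 bases in ube2d3, a ubiquitin-conjugating enzyme gene, at 0.418, 0.43, 0.498 and 0.434 against 0.466, 0.404, 0.471 and 0.419 in the authors' deposited table. An exon of 37 bases in pcdh1g26, a clustered protocadherin gene, had mean levels of 0.337 and 0.369 in the authors' deposited table (FDR 0.649). In each of these 4 exons the groups overlapped. The pcdh1g26 gene was at only 1.84 CPM in mutants and 2.22 CPM in wild types, beside a mean of 1235 junction reads for its exon. Many of those reads were thus not counted to this gene, and the cause was not tested.

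An exon of 214 bases in elavl1, which encodes an RNA-stabilizing protein, had similar levels of inclusion in both groups while both forms were more abundant in the first. Its levels were 0.292, 0.328, 0.315 and 0.272 against 0.315, 0.298, 0.309 and 0.262 in the authors' deposited table, with inclusion reads at 2.15 and skipping reads at 2.07 times. The exon of 71 bases in aars, an alanyl-tRNA synthetase gene, did likewise, at ratios of 1.85 and 2.28 and a difference of -0.033 in the authors' deposited table (FDR 0.371).

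Spread within a group was wide for many exons. The median range over the 4 libraries of a group was 0.156 in the first and 0.184 in the second group, and 0.114 and 0.117 for exons with at least 100 reads. A range above 0.5 in at least 1 group was found for 51 exons, 6 of which passed, and 6 exons had a library without reads. The exon of 67 bases in si:ch73-295i22.2 passed (FDR 0.00559) with 0.855, 0.835, 0.855 and 0.858 in the first group and 0.064, 0.787, 0 and 0.873 in the second group of the authors' deposited table. The second group held 3, 105, 0 and 104 inclusion reads against 4522 to 5364 in the first group of the authors' deposited table, so its mean level rests on few reads. An exon of 121 bases in prune2 was at 0.973, 0.961 and 0.933 in 3 libraries of the first group and 0.243 in the other, against 0.265, 0.55, 0.348 and 0.519 in the authors' deposited table. The group of prune2 that stands higher on average thus also holds the lowest library.

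Several exons came from the same gene. There were 19 genes with more than 1 exon, with at most 4 in si:rp71-26b20.1, none of which passed, and 14 exons shared 1 end with another. In 3 of the genes both exons passed in the same direction (ccnl1a higher, pcbp3 and tmem243b lower), and in these the exons shared an end.

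The gene counts of the host genes carry genotype labels and were not used directly by the rule. The junction reads that the rule did use come from the same mRNAs. A gene high in a single group can meet the minimum of reads through that group, so selection and mRNA level are not independent. All 271 host genes were tested with edgeR's quasi-likelihood test and Benjamini-Hochberg adjustment over 23680 genes. In mutants 53 were higher (19.6%) and 14 were lower (5.17%), where 9.12% of all genes were higher and 5.16% lower. Among the 11449 tested genes with a row of enough junction reads, 12.2% were higher and 5.68% lower. The median log2 fold change of the 271 was 0.03, beside -0.01 over all genes. The DESeq2 Wald test called 28 host genes lower. Leaving out a single library lowered the number of host genes called lower to 6 (mutant replicate 1), 9 (mutant replicate 4), 7 (wild type replicate 3) or 8 (wild type replicate 4).

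The higher host genes were found mainly where an exon differed. Of 38 genes with an exon higher in the first group, 14 were higher in mutants (36.8%) and 2 lower, with a median log2 fold change of 0.15. Of 44 genes with an exon lower in the first group, 21 were higher (47.7%) and 2 lower, with a median of 0.35. Of 189 genes with no exon called, 18 were higher (9.52%) and 10 lower, with a median of -0.00244. Depth moves with these classes, so the same shares were taken among exons with at least 100 junction reads: 29 of 61 host genes of called exons were higher (47.5%) and 7 of 74 of the others (9.46%). Junction reads come from the same mRNAs as the gene counts, so this cut cannot separate depth from mRNA level. Reads of a form that differs also count toward its gene, so exon calls and gene calls are not independent. Hosts of frame-preserving exons that passed had 30 of 159 higher (18.9%), and all hosts of frame-preserving exons in the window 78 of 872 (8.94%).

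**Figure D5:**
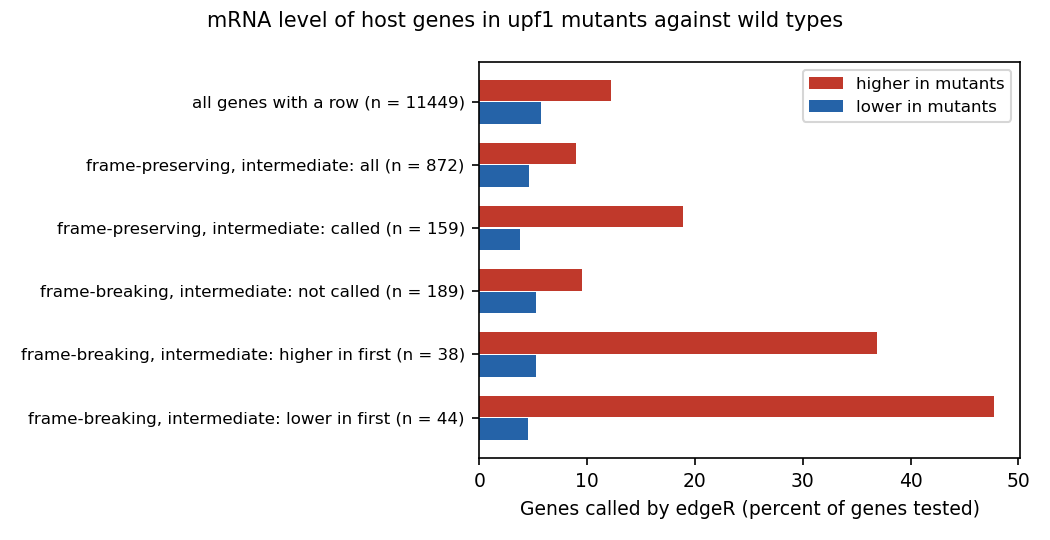
Percent of tested genes that were higher (red) or lower (blue) in upf1 mutants by edgeR's quasi-likelihood test at an adjusted p under 0.05 (x axis), for classes of host genes (rows, with the number of genes). Genes whose frame-breaking exon was lower or higher in the first group had 47.7% and 36.8% higher in mutants, against 9.52% where no exon was called, while the blue bars lie between 3.77% and 5.68%.

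Every host gene of the 5 rising exons in the SR and hnRNP list was higher in mutants. The tra2b mRNA was at 80.1, 89.9, 80.6 and 89.2 CPM in the mutants and at 35.4, 36.3, 31.5 and 34.7 CPM in the wild types. This was a 2.46-fold difference (84.96 ± 5.31 against 34.5 ± 2.07, SD, n = 4; log2 fold change 1.301, SE 0.0766, edgeR adjusted p = 6.72e-06). The others were srsf3a (2.70-fold, 22.4 ± 0.656 against 8.31 ± 0.698 CPM), srsf6b (2.11-fold, 316 ± 27.1 against 150 ± 10.6), rbm39a (1.92-fold) and srsf11 (1.45-fold), with edgeR adjusted p between 8.78e-06 and 0.00447. All mutants lay above all wild types for each of the 5 genes.

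The genes of the 4 falling exons in that list were higher too. The ptbp1b mRNA was at 137, 132, 162 and 139.8 CPM in mutants and 44.4, 50.1, 43.7 and 46.1 CPM in wild types (3.10-fold, log2 fold change 1.63, SE 0.0878, edgeR adjusted p = 3.73e-06). The ptbp2b mRNA was at 228, 224, 217 and 221 CPM against 64.0, 66.2, 68.1 and 73.8 CPM (3.27-fold, log2 fold change 1.71, SE 0.0735, edgeR adjusted p = 9.53e-07). The kinase genes clk4a and clk4b were 1.75-fold and 1.58-fold higher (edgeR adjusted p = 0.00135 and 0.000437). Thus the same direction of mRNA change stood beside exons that differed in opposite directions. The uncalled exon of elavl1 had a host gene that was 1.67-fold higher (218 ± 7.39 against 130 ± 6.99 CPM, n = 4, edgeR adjusted p = 0.000175). That of mbnl3, also with an uncalled exon, was at 7.04 CPM in mutants and 10.3 in wild types and did not pass (edgeR adjusted p = 0.0819).

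Host genes outside the list that were picked after their exon values were seen, and so support no statement on a group, included several that were higher by edgeR: ccnl1a 3.10-fold, hnrpkl 2.99-fold, sltm 2.35-fold, puf60a 2.18-fold, dazap1 2.12-fold, rbm6 2.08-fold, rbpms2b 1.82-fold and rbm5 1.78-fold, with adjusted p between 3.56e-06 and 0.000377. The mRNAs of pcbp3 (adjusted p = 0.64) and rbm4.2 (1.11-fold, edgeR adjusted p = 0.294) did not pass, nor did that of ddx5 (751 ± 104 against 727 ± 94.8 CPM, n = 4, edgeR adjusted p = 0.857) or nmrk2 (134 ± 16.7 against 102 ± 19.4 CPM, n = 4, edgeR adjusted p = 0.0964). Large differences in inclusion were therefore seen both with and without an edgeR call of the host gene. The ddx5 exon had a mean of only 22.9 junction reads, few for a gene at 751 and 727 CPM. Its forms may thus be a small part of the ddx5 mRNA. A host gene that did not pass is not shown to be unchanged, and nmrk2 was 1.31-fold higher in mutants without passing.

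The largest rise among host genes was that of si:ch73-295i22.2, whose function is not annotated in the sources used here. It was at 201, 238, 201 and 239 CPM in mutants and 7.38, 6.80, 4.81 and 6.13 CPM in wild types (35.01-fold, log2 fold change 5.13, SE 0.154, edgeR adjusted p = 2.85e-07). The myosin genes myh7ba and myh7bb were 8.10-fold and 5.13-fold higher (84.9 ± 33.9 against 10.5 ± 2.36 and 316 ± 93.3 against 61.5 ± 6.44 CPM, n = 4; edgeR adjusted p = 0.000438 and 0.000171), while summed muscle markers were lower in mutants. Then came c6, a complement component gene (7.90-fold), si:dkey-31n5.4 (4.77-fold) and nos2b, an inducible nitric oxide synthase gene (4.40-fold, edgeR adjusted p = 0.00201). The member exons of these last 3 genes were not called. That of myh7ba was not called either and met the minimum of junction reads only through the first group, as given above.

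Falls of host genes were smaller. The glucuronosyltransferase gene ugt5b2 was at 1.61 ± 0.32 CPM in mutants and 3.92 ± 0.984 in wild types (n = 4, log2 fold change -1.28, SE 0.219, edgeR adjusted p = 0.00465). The nuclear receptor gene nr4a3 was at 50.4, 47.6, 57.0 and 23.4 CPM against 109, 83.0, 96.9 and 97.2 CPM (log2 fold change -1.12, SE 0.242, edgeR adjusted p = 0.0175). The others named by rule were s100s (log2 fold change -0.73), the sarcomere gene MYOM2 (-0.62), the lipoprotein receptor gene scarb1 (-0.62), greb1l (-0.51), capzb (-0.45) and the myelin gene mag (-0.42), all with mutants below wild types. The edgeR calls of MYOM2 and mag were lost in fits that left out 1 library, at adjusted p of up to 0.0756 for MYOM2 without wild type replicate 3 and 0.0526 for mag without mutant replicate 1. Summed muscle markers were also lower in mutants, as were 4 of 7 liver markers, and their part in the MYOM2, scarb1 and ugt5b2 differences was not tested. The exons of capzb and scarb1 were lower in the first group and that of s100s was higher.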

How the data were processed

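PolyA RNA of 4 upf1 mutant and 4 wild type libraries was sequenced, per the labels. The authors deposited gene counts on GRCz10. Their skipped exon table holds junction counts, inclusion levels (a fraction), p-values and FDR values under column names of the kind rMATS uses, per the file headers. The submitters' processing notes name STAR 2.5.2b, TopHat2 2.0.13, featureCounts, SAMtools 1.3.1 and Salmon 0.7.2; which tool did what, the splicing caller's version and the strand setting are not stated, so reads of overlapping genes may be mixed. Differences in the deposited counts were tested by edgeR 4.0.16 under R 4.3.3 (quasi-likelihood test, robust, TMM, filterByExpr with a minimum count of 10 and a minimum total of 15, Benjamini-Hochberg, threshold 0.05), and CPM used the same scaling. The deposited table was read with Python 3.11.15 and pandas 2.3.3, its FDR was taken at 0.05, and rows of 1 exon were counted once, by the row with most junction reads.

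Members, gene lists and tests were chosen with earlier results of these data known. Named were the 10 largest rises and falls of inclusion that passed without overlap, the 5 exons with the smallest FDR, up to 3 exons per list, the 5 deepest exons that did not pass, the exons at the window's bounds, the 8 largest rises and falls of host genes that passed without overlap, and upf1; genes outside this rule, such as rbm5, rbpms2b, capzb, cct8, prune2 and pcbp3, were chosen after their values were seen. Alternatives were other scalings and filters, DESeq2 1.42.0, voom of limma 3.58.1, a block for replicate number, dropping each library in turn, other thresholds, a limma fit of log2 inclusion over skipping reads (pseudocount 0.5) and, added after seeing the data, a window on the first group and leaving out exons with a range above 0.5. Both fits were checked on simulated data. The edgeR fit recovered 19.4% of planted 1.5-fold, 62.7% of 2-fold and 98.5% of 4-fold changes, with 9 false calls among 129. The log2 ratio fit recovered 53% of planted inclusion differences of 0.2 and 98% of those of 0.4, with 6 false calls among 157. Its planted rows had at least 50 junction reads. Smaller changes can thus be missed. No genome or sequence table of this build was used, so no exon sequence is printed. The values of 1 exon at the window bounds are not reported here.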

Additional observations from a re-analysis of the deposited data

Results flagged for a closer look

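A single library stood apart from the other 3 of its group in 8 of 114 groups of values examined, and chance gives about 1 in 20. For inclusion, these were zgc:101731 (exon of 112 bases), where 1 library of the first group was at 0.789 and the others at 0.511 to 0.547, and ptbp2b (34 bases), where 1 was at 0.255 and the others all at 0.237. The exon of 44 bases in zgc:112982 had 1 library of the second group at 0.913 and the others at 0.703 to 0.731. The exon of 34 bases in dlg1l had 1 library of the first group at 0.609, and that of 71 bases in aars 1 library of the second group at 0.284. For mRNA levels in wild types, 1 library was at 6.98 CPM for myh7ba, below the others, at 33.5 CPM for s100s and at 22.3 CPM for scarb1, above the others. In the called ones among these exons and genes, the 2 groups did not overlap with these libraries included.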

How the results depend on the processing

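By the authors' FDR, 88 frame-breaking intermediate rows passed. The count was 71 at an FDR of 0.01, 78 with a difference of at least 0.1, 76 with at least 50 junction reads, 85 with each exon counted once and 82 without exons whose range within a group was above 0.5. With the window set on the first group, 373 of 610 rows passed, 317 of them lower and 56 higher. Of the 610, 244 were also in the original window. The first-group window thus held other rows, and the cause of the split of directions was not tested. The limma fit of log2 ratios called 56 rows, 22 higher and 34 lower, and 43 to 53 when 1 library was left out; it called 7.43% of all rows. Of the 40 named exons, the 26 that passed kept the sign of their difference when 1 library was left out or junction counts were pooled. The 10 largest rises and 10 largest falls among them were named because their groups did not overlap. For those exons neither alternative could change the sign, so the result is no check on them. The named exons that did not pass were not scored for a change of sign, and several had small differences. No paired analysis of the skipped exon table was possible because its values are not tied to replicate numbers. For gene counts, correlations of deviations between same-numbered libraries were 0.0228, 0.0345, -0.067 and -0.051, so the numbers were not taken as pairs, and with the replicate block 39 host genes were higher and 6 lower. DESeq2 called 60 higher and 28 lower, and leaving out 1 library gave 41 to 50 higher and 6 to 14 lower, against 53 and 14. MYOM2 lost its call with the block (adjusted p = 0.0602), as did capzb (0.0627) and mag (0.0701); the cause was not tested. Of frame-breaking intermediate rows under 50 junction reads, 12.6% passed.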
